A study of Homo sapiens with 6 samples.

Results

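Mature miRNAs known as markers of lineages other than liver were followed in Huh7 cells, a human hepatoma cell line of hepatocyte origin. They were chosen by name, as miR-1-3p, miR-133a-3p and miR-206 for muscle, miR-124-3p and miR-9-5p for neural cells, miR-142-5p, miR-142-3p, miR-223-3p and miR-451a for blood cells, and miR-126-3p for endothelial cells, and all 10 were among the 2588 mature human miRNAs of the deposited table. The cells had been transfected with a plasmid overexpressing hsa_circ_0098181 (overexpression group, 3 samples) or with the control plasmid (control group, 3 samples) by lipofection, and RNA was taken 48 h later. Both groups were grown in the same medium with 10% fetal bovine serum, so that each group is a transient transfection of 1 cell line and differs from the other by the plasmid. No source used here says that the 3 samples of a group came from separate cultures, so that p-values measure the spread between these samples, which may be technical. The comparison asked which miRNAs changed with the circular RNA. The total was 7144798 to 10786295 counts per sample. Control replicate 3 stood apart, with a median absolute log2 difference of 0.21 from either of the other controls over 152 abundant miRNAs, against 0.049 between those controls and 0.078 to 0.11 among the overexpression samples. It lay nearer to the overexpression samples (0.12, 0.19 and 0.16 from replicates 1 to 3) than to the other controls, and results that rest on it are also given without it.

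A miRNA is cut from a hairpin precursor, and bases 2 to 8 of the mature strand, the seed, pair with target mRNAs. Some miRNAs are made almost wholly in a single lineage. miR-1, miR-133 and miR-206 belong to the muscle miRNAs, which act in myoblast differentiation, and miR-124 and miR-9 act in neurons and neural progenitors. miR-142 is made across blood cells, miR-223 in myeloid cells and miR-451a in red cell precursors, where it is cut by AGO2 instead of Dicer. miR-126 lies in an intron of EGFL7, a gene of endothelial cells, and acts in vessel integrity. Such miRNAs are therefore used to judge which cells an RNA sample holds, and miR-122-5p is used in the same way for hepatocytes.

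The mature sequences of 8 of the 10 miRNAs were matched by name in RefSeq (GRCh38.p14), and none is shown for miR-124-3p and miR-451a. All sequences run 5′ to 3′ with the seed in capitals. The muscle miRNAs are shown with miR-122-5p and miR-133b because their seeds are shared or differ by a single base.
hsa-miR-1-3p: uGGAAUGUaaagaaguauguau
hsa-miR-206: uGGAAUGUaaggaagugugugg
hsa-miR-122-5p: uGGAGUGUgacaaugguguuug
hsa-miR-133a-3p: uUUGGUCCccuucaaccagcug
hsa-miR-133b: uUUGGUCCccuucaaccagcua

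miR-1-3p and miR-206 have the same seed, and of 22 positions counted from the 5′ end they differ at 4, all outside the seed (A11G, A17G, A21G and U22G, with the base of miR-1-3p given before the position). miR-133a-3p and miR-133b differ at the last base alone (G22A), so that a read that lacks this base fits both. miR-122-5p differs from miR-1-3p at 11 of 22 positions, of which 1 is in the seed (A5G). The remaining markers with a matched sequence follow, of which miR-126-3p carries most of the counts of the 10.
hsa-miR-126-3p: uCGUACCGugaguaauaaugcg
hsa-miR-9-5p: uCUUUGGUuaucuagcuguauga
hsa-miR-142-3p: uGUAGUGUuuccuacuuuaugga
hsa-miR-142-5p: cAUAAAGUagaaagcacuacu
hsa-miR-223-3p: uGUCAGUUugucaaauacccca

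The seeds of miR-126-3p, miR-9-5p, miR-142-3p and miR-223-3p were each found in 1 mature human miRNA of the RefSeq table. The seed of miR-142-5p was shared with miR-5590-3p, and of the 34 counts with that seed 50% were those of miR-142-5p. The seed of miR-1-3p was also that of miR-206 and miR-613, and 93.8% of its 96 counts were those of miR-1-3p.

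The precursor genes are spread over the genome (GRCh38). The mature strand of miR-126-3p lies at chr9:136670653-136670674 on the plus strand, in an intron of EGFL7. miR-142-3p lies at chr17:58331245-58331267 on the minus strand, and the other arm, miR-142-5p, at chr17:58331283-58331303, which GENCODE release 29 places in an exon of the non-coding gene AC004687.1 of the same strand and in an intron of TSPOAP1-AS1 of the opposite strand. miR-9-5p has 3 precursors with the same mature sequence, in an intron of C1orf61 (chr1:156420392-156420414), an exon of LINC00461 (chr5:88666902-88666924) and an intron of MIR9-3HG (chr15:89368032-89368054), and counts of the mature strand cannot be divided among them. miR-1-3p has 2 precursors, at chr20:62554351-62554372 in an intron of MIR1-1HG and at chr18:21829015-21829036 in an exon of MIR133A1HG. Each has a precursor of miR-133a in the same host gene. miR-223-3p lies at chrX:66018937-66018958 in an exon of AL034397.3, and miR-206 lies at chr6:52144401-52144422 in no annotated host gene.

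The endothelial marker stood far above the other marker miRNAs, whose mean levels ran from 3180 TPM for miR-126-3p down to 0.0510 TPM for miR-133a-3p. Levels are given in TPM, which here is the count after each sample was scaled to a common total of 1000000, and 3 counts correspond to 0.278 to 0.420 TPM depending on the sample. Values in TPM depend on how well each miRNA is ligated and counted, and lengths of 21 to 23 bases were not corrected for. The order by the mean over all 6 samples was miR-126-3p, miR-9-5p, miR-142-3p, miR-124-3p, miR-223-3p, miR-1-3p, miR-451a, miR-142-5p, miR-206 and miR-133a-3p. The samples did not overlap between the neighbours of this order from miR-126-3p down to miR-124-3p, whereas miR-223-3p (1.77 TPM) and miR-1-3p (1.74 TPM) did not differ beyond their spread, and miR-206 was above miR-133a-3p in 3 of 6 samples. Of the 10, 7 had more than 3 counts in every sample, compared with 22.3% of all miRNAs of the table.

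miR-126-3p held 26097, 27476 and 26408 counts in the overexpression samples against 34106, 27460 and 21815 in the controls, here and below in the order of replicates 1 to 3. Its levels were 3271, 3244 and 3186 TPM with hsa_circ_0098181 and 3162, 3165 and 3053 TPM with the control plasmid, so that all 3 overexpression samples lay above all 3 control samples by a narrow margin. Groups that did not overlap in TPM, in either direction, were found for 18.3% of the 552 miRNAs that passed a filter on low counts. It ranked 30 among the 1366 miRNAs with a count in any sample. It alone gave between 94.8% and 96.4% of the counts of the 10 markers in each sample, and miR-122-5p was 101 times as abundant. The other strand of the same hairpin, miR-126-5p, had a mean of 1003 TPM over the 6 samples and ranked 60, so that both strands of this precursor were among the abundant miRNAs of these cells.

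miR-9-5p was next, with 1017, 1066 and 928 counts in the overexpression samples against 1431, 835 and 1042 in the controls. In TPM it was 121.8 ± 8.53 (SD, n = 3) with hsa_circ_0098181 and 125 ± 25.7 (SD, n = 3) with the control plasmid. Control replicate 3 was the highest sample (146 TPM) and control replicate 2 the lowest (96.2 TPM), so that the control samples enclosed all overexpression samples. miR-124-3p, the other neural marker, was much lower and had 28, 30 and 25 counts with hsa_circ_0098181 and 36, 21 and 20 in the controls. These were 3.36 ± 0.295 TPM (SD, n = 3) and 2.85 ± 0.461 TPM (SD, n = 3), and the groups overlapped. The mean of miR-9-5p over the 6 samples was 123 TPM, against 3.10 TPM for miR-124-3p, and the ranks were 141 and 431.

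Among the blood markers, miR-142-3p was the most abundant and was found at a lower level in every overexpression sample than in any control sample. It was counted 78, 71 and 79 times with hsa_circ_0098181 and 131, 146 and 95 times with the control plasmid, which were 9.78, 8.38 and 9.53 TPM against 12.1, 16.8 and 13.3 TPM. As given above, 18.3% of the 552 miRNAs that passed the filter did not overlap between the groups in TPM. miR-223-3p had 14, 18 and 18 counts with hsa_circ_0098181 against 28, 6 and 9 with the control plasmid, and the controls ranged from 0.692 TPM in replicate 2 to 2.60 TPM in replicate 1, below and above all overexpression samples. miR-451a was counted 5 times in each overexpression sample and 10, 5 and 6 times in the control samples, with a mean of 0.694 TPM over all samples. miR-142-5p was near the level of 3 counts, with 4, 4 and 3 counts in the overexpression samples against 3, 2 and 1 in the controls.

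Of the muscle markers, miR-1-3p was low but above 3 counts in every sample, and miR-206 and miR-133a-3p were at the limit of these libraries. miR-1-3p held 14, 18 and 11 counts with hsa_circ_0098181 against 20, 15 and 12 with the control plasmid, at 1.74 ± 0.400 TPM (SD, n = 3) and 1.75 ± 0.0901 TPM (SD, n = 3). miR-206 had 2, 1 and 0 counts in either group. miR-133a-3p had 1 count in overexpression replicate 3 and 2 counts in control replicate 1 and was at 0 in the other 4 samples. No sample had more than 3 counts of miR-206 or miR-133a-3p, so that this depth could not resolve a small difference, and no fold change is given for them. The pooled level of miR-133a-3p was 0.0404 TPM with hsa_circ_0098181 (exact 95% Poisson interval 0.00102 to 0.225) and 0.0752 TPM with the control plasmid (0.00910 to 0.272), and such intervals cover counting error only.

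Levels were also read for wider lists of miRNAs of the same lineages. Of 7 muscle miRNAs, 3 (miR-133b, miR-208a-3p and miR-208b-3p) had 0 counts in all 6 samples, and the highest was miR-499a-5p, a miRNA of the heart and slow muscle, which with 12.4 TPM gave 86.6% of the counts of the list. The absence of counts of miR-133b allows up to 3 counts, which is 0.278 to 0.420 TPM per sample. More than 3 counts in every sample were found for 2 of the 7 muscle miRNAs, beside 22.3% of all miRNAs of the table. Of 10 neural miRNAs, 7 had more than 3 counts in every sample, and miR-137, which acts in neural progenitors, was at 116 TPM, close to miR-9-5p. Of 8 blood miRNAs, 5 did, and the partner of miR-451a in the same primary transcript, miR-144, was at 3.31 TPM in its 5p strand, above miR-451a, and at 0.234 TPM in its 3p strand, below it. The summed level of the blood list was 17.1 to 18.9 TPM in the overexpression samples and 20.7 to 24.3 TPM in the control samples. These sums include miR-142-3p, which gave 58.7% of the counts. Its mean alone was 9.23 TPM in the overexpression group and 14.1 TPM in the control group, so that the sums add nothing to its own difference. Of the 552 miRNAs that passed a filter on low counts, 18.3% did not overlap between the groups in TPM. The liver list, with 6 miRNAs led by miR-122-5p, summed to 422441 to 434434 TPM in the overexpression samples and to 403572 to 435346 TPM in the control samples, of which miR-122-5p gave 75.9% of the counts. The cells were labelled as a liver cancer line, and miR-122-5p was the most abundant of all miRNAs, while miR-885-5p, also of the liver list, was at 17.4 TPM. In RNA from a whole culture, fewer cells that make a miRNA and less of it per cell cannot be told apart. Whether the few counts of the lowest markers came from these cells at all was not tested.

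The comparison of the groups used edgeR's quasi-likelihood test on the counts, scaled by TMM factors, with adjustment over all 552 miRNAs that passed the filter on low counts. Of the 10 markers, 6 passed this filter, and miR-133a-3p, miR-206, miR-142-5p and miR-451a did not. Of the 6, 0 had an adjusted p under 0.05, where the test called 0 of all 552 miRNAs (0%). With DESeq2 the counts were 0 of 6 and 0 of 552 as well, with 41 of 552 at an unadjusted p under 0.05. At an unadjusted p under 0.05, 1 of the 6 was found (miR-142-3p), beside 50 of 552 (9.06%). miR-126-3p and miR-142-3p did not overlap between the groups in TMM-scaled counts (CPM, with the same total as TPM before the factors are applied), which was so for 15.4% of all 552 miRNAs, and the same pair did not overlap in TPM (18.3% of all).

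miR-142-3p was the only marker of the 6 with a lower estimate in the overexpression group, where 49.1% of all miRNAs tested had one. After TMM scaling it was at 9.59 ± 0.420 CPM (SD, n = 3) with hsa_circ_0098181 against 13.5 ± 2.40 CPM (SD, n = 3) with the control plasmid. This was a log2 fold change of -0.50 (standard error 0.17, 95% confidence interval -0.85 to -0.14), with an unadjusted p of 0.0105 and an adjusted p of 0.314 from edgeR. This result depended on control replicate 3, the library with the lowest total, since without it the log2 fold change was -0.57 with an adjusted p of 0.0182 from edgeR, where 56 of 565 miRNAs had an adjusted p under 0.05. The part of depth in this was not tested. Over the other fits that each left out a library the adjusted p from edgeR was between 0.496 and 0.847. Without control replicate 2, the highest sample, the log2 fold change was -0.35 and the interval reached 0.011.

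miR-126-3p was higher in every overexpression sample also after TMM scaling, at 3367 ± 136 CPM (SD, n = 3) against 3007 ± 178 CPM (SD, n = 3). Its log2 fold change of 0.16 (standard error 0.081, 95% confidence interval -0.011 to 0.34) had an adjusted p of 0.562 from edgeR. Under the library size alone this fell to 0.049, and leaving out control replicate 3 gave 0.097. The size of this difference therefore varied with the scaling, and its standard error was the smallest of the 6.

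The other 4 markers had intervals that included 0 and reached well to either side. The log2 fold change of miR-9-5p was 0.082 (95% confidence interval -0.22 to 0.38), and that of miR-1-3p was 0.090 (-0.64 to 0.82). Both directions turned under the library size alone, to -0.036 and -0.021. miR-124-3p had a log2 fold change of 0.33 (-0.23 to 0.89), which was 0.22 without control replicate 2, 0.50 without control replicate 1 and 0.18 with limma. For miR-223-3p it was 0.45 (-0.48 to 1.38). This value rested on control replicate 1, which held 28 of the 43 control counts, since it was 1.20 without this library (unadjusted p 0.0233, adjusted p 0.545 from edgeR), and on control replicate 2, without which it was 0.10. The adjusted p of these 4 was between 0.671 and 0.921 in edgeR's test with all samples.

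The scaling shifted all miRNAs together, as the median log2 fold change over the 552 miRNAs moved from 0.0038 under TMM to -0.11 under the library size alone. Relative to these medians, the estimate of miR-142-3p was lower and those of the other 5 markers were higher under either scaling. With the library size alone, 3 of the 6 markers had a lower estimate in the overexpression group, beside 70.5% of all miRNAs tested. The median of the 6 markers moved likewise, from 0.13 to 0.014.

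**Figure D1:**
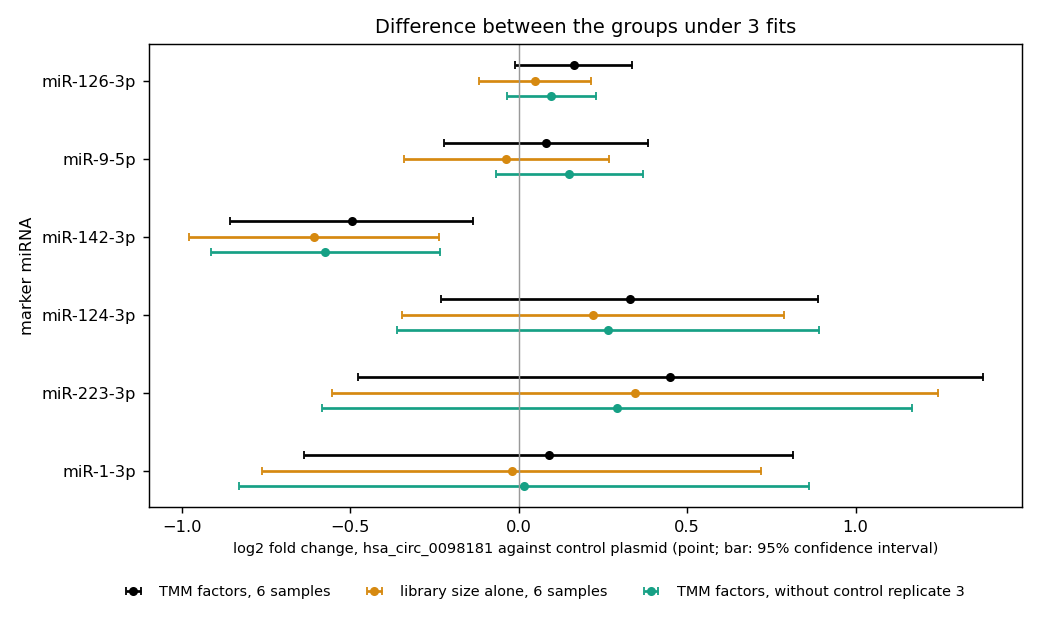
Log2 fold change of the hsa_circ_0098181 plasmid against the control plasmid for the 6 tested marker miRNAs, with 95% confidence intervals, from edgeR under TMM factors (black), under the library size alone (orange) and with TMM factors without control replicate 3 (green). The interval of miR-142-3p lies below 0 in all 3 fits, and the intervals of the other 5 include 0.

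In the wider lists of these lineages, which include the markers tested above, 0 had an adjusted p under 0.05 from edgeR. Of the muscle list 2 of 7 were tested, of the neural list 7 of 10, of the blood list 4 of 8 and of the endothelial list both. An unadjusted p under 0.05 was found for 1 neural and 1 blood miRNA, where all miRNAs tested gave 9.06%. The blood miRNA was the marker miR-142-3p again. Of the neural list, 5 estimates were higher and 2 lower, beside 49.1% lower among all miRNAs tested, with log2 fold changes from -0.19 for miR-129-5p to 0.33 for miR-132-3p, and miR-132-3p had an unadjusted p of 0.0282 (adjusted p 0.421 from edgeR). In the blood list 2 estimates were higher and 2 lower, with a range from -0.50 for miR-142-3p to 0.46 for miR-150-5p, a miRNA of lymphocytes. miR-144-5p had a log2 fold change of -0.045 (95% confidence interval -0.65 to 0.56).

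Both strands of a hairpin come from the same molecule, and their ratio does not depend on the library size. For miR-126, the 3p strand held 75.8% of the counts of both strands over the 6 samples, and the log2 ratio of 3p to 5p was 1.65 ± 0.0728 (SD, n = 3) with hsa_circ_0098181 and 1.70 ± 0.273 (SD, n = 3) with the control plasmid. The ratio of counts was 3.25, 2.96 and 3.21 against 2.80, 3.07 and 4.03 in the controls, so that control replicate 3 stood above all other samples. The difference of the mean log2 ratios was -0.056, and without control replicate 3 it turned to 0.097. For miR-9, the 5p strand held 85.1% of the counts, and the log2 ratio of 5p to 3p was 2.54 ± 0.169 (SD, n = 3) and 2.48 ± 0.154 (SD, n = 3). Its 3 precursors give the same mature strands, so that this ratio pools 3 hairpins. Neither ratio differed beyond the spread between samples (two-sided exact permutation tests of 2 ratios, p = 0.9 for miR-126 and p = 0.6 for miR-9, both 0.9 after Benjamini-Hochberg adjustment, where 3 samples against 3 cannot go below 0.1).

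The strands of miR-142 had too few counts of the 5p strand for that test. The 5p strand gave 11 of 239 counts in the overexpression group (4.60%, exact 95% binomial interval 2.32% to 8.09%) and 6 of 378 counts in the control group (1.59%, 0.585% to 3.42%). The ratio of 3p to 5p counts was 19.5, 17.8 and 26.3 with hsa_circ_0098181 against 43.7, 73 and 95 in the controls, without overlap, but each of these rests on 1 to 4 counts of miR-142-5p. In TPM, miR-142-5p was higher in every overexpression sample (0.501, 0.472 and 0.362) than in any control sample (0.278, 0.230 and 0.140), the opposite order to miR-142-3p. The counts themselves met at 3 in overexpression replicate 3 and control replicate 1, so that the separation came with the scaling by the totals, and among the 1366 miRNAs with a count in any sample 10.8% did not overlap in TPM. The intervals of the pooled levels of miR-142-5p, 0.222 to 0.796 TPM and 0.0828 to 0.491 TPM, overlapped. These and the binomial intervals pool the 3 samples of a group and cover counting error only, and their overlap is not a test.

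The other markers were found almost wholly as the strand used as the marker. miR-124-3p had 160 counts against 4 of miR-124-5p, miR-223-3p had 93 against 3 of miR-223-5p, and miR-1-3p had 90 against 0 of miR-1-5p. With 3 counts against 2 of miR-133a-5p, miR-133a-3p gave no usable share. Of the relatives by sequence, miR-133b and miR-451b had 0 counts in every sample, and miR-506-3p had between 3 and 6 counts per sample.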

How the data were processed

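The deposited counts are the reads that the authors assigned to each mature human miRNA, and they carry no normalization. The deposited TPM columns equal the count scaled to a total of 1000000 per sample, to within 0.00303. The submitters' processing notes name hg38, TopHat2 2.0.9 and Bowtie without a role, and trimming, miRNA annotation, strand and the rule for multi-mapped reads are not given in the sources used here. Counts of near-identical miRNAs are therefore uncertain. Totals were 7144798 to 10786295 counts, with no molecular identifiers named, and the chi-square between replicates, per degree of freedom, was 15.2 to 132 for the 6 pairs, so that none was a copy.

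Groups followed the sample titles. The test was edgeR 4.0.16 in R 4.3.3 (filterByExpr with a minimum count of 10 and total of 15, TMM, quasi-likelihood, group as the only term, two-sided, Benjamini-Hochberg, threshold 0.05), tested on simulated data. Arm ratios used counts with 0.5 added, where both arms had at least 10 counts in every sample. Alternatives were DESeq2 1.42.0, limma 3.58.1 on log2(TPM + 1), other scalings and filters, the replicate number as a block and leaving out each sample. All 10 markers were named, with their other arms, relatives, partners and lineage lists. Any further name (miR-5590-3p, miR-613) came from a shared seed. The markers and lists were chosen with earlier results of these data known. Sequences are from RefSeq (GRCh38.p14) and host genes from GENCODE release 29 (GRCh38).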

Additional observations from a re-analysis of the deposited data

How the results depend on the processing

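Of 83 values for single marker miRNAs under the alternatives, 76 changed neither direction nor call, 1 passed the threshold and 6 changed direction. The log2 fold changes of miR-1-3p and miR-9-5p were -0.021 and -0.036 under the library size alone, and with limma on log2 TPM -0.020 and -0.017. With a sample left out they ranged from -0.12 to 0.27 and from -0.076 to 0.15. Markers with a lower estimate were 1 of 6, but 3 of 6 under the library size alone or limma, 3 of 10 without a filter on low counts, and 1 to 2 with a sample left out. The 3 of 10 include miR-133a-3p, which had 3 counts in total. Among all miRNAs tested, 49.1% had a lower estimate in the main fit and 70.5% under the library size alone. This share was 69.0% with limma, 51.4% without a filter and 48.4% to 52.9% with a sample left out. Markers with an adjusted p under 0.05 were 0, and 0 to 1 with a sample left out (miR-142-3p, without control replicate 3). The count over all miRNAs was 0, but 3 with the library size alone, 3 with limma, 6 without a filter, and 0 to 56 with a sample left out, where 56 was that without control replicate 3. The causes were not tested. The difference of the log2 arm ratio was -0.056 for miR-126 (-0.17 to 0.097 with a sample left out, above 0 without control replicate 3 alone) and 0.058 for miR-9 (-0.030 to 0.15, the lowest without control replicate 2, and -0.010 when overexpression replicate 1 was dropped). The 7 markers with more than 3 counts in every sample were 8 with any count and 5 with at least 10.

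No label says whether samples with the same replicate number were paired, and the main fit did not pair them. The deviations of such samples from the group means, over 152 miRNAs with a mean of at least 100 CPM, correlated at -0.025, 0.15 and 0.24. Of the 6 samples, 3 correlated best with their own number, and these values cannot decide whether the samples were paired. With the replicate block 0 markers and 0 miRNAs had an adjusted p under 0.05, 1 of 6 markers was lower, the log2 fold change of miR-142-3p was -0.49, and the arm ratios differed by -0.056 and 0.058. Depth limits miR-133a-3p, miR-206 and miR-142-5p most, which had at most 4 counts in any sample, and then miR-451a, with 5 to 10.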

Other observations

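miRNAs of the pancreas were also counted in these hepatoma cells. miR-217 was at 62.4 TPM, miR-375, a miRNA of islet cells, at 42.6 TPM and miR-216a-5p at 32.0 TPM as means over the 6 samples, all above the blood and muscle markers. The log2 fold changes were 0.27 for miR-217 (unadjusted p 0.0398, adjusted p 0.507 from edgeR), 0.31 for miR-216a-5p (adjusted p 0.544) and 0.17 for miR-375 (adjusted p 0.653), and 0 had an adjusted p under 0.05. These estimates used TMM factors, under which 49.1% of all miRNAs tested had a lower estimate, against 70.5% under the library size alone.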
